A study of Mus musculus with 18 samples.

Results

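Sulfotransferases move a sulfate group onto sugars, tyrosines or small molecules, and the genes described here are all those whose symbols name a carbohydrate, tyrosine or small-molecule sulfotransferase of the mouse, with both enzymes that make their sulfate donor. Members were all genes whose symbol matched a fixed pattern, 56 of the 24054 genes in each table. The group was chosen with earlier results of these data known, so its shares beside those of all genes are a description. Their mRNA was measured by RNA-Seq in the hypothalamus, pituitary and thyroid of 3 WT mice (1, 2 and 43) and 3 K146Q mice (60, 62 and 83), 18 libraries in all, with the same mouse numbers in each tissue. All mice were untreated males, 3 months old, of a C57BL/Ntac strain. K146Q mice carried a germline knock-in in every cell that replaces a lysine of the thyroid hormone receptor THRB with glutamine, at a residue to which the small modifier SUMO is joined. Each tissue was snap frozen whole, so a level is an average over all cell types in it, and fewer cells of a type cannot be told apart from less RNA per cell.

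Every sulfotransferase takes its sulfate from PAPS, which the PAPS synthases Papss1 and Papss2 make from ATP and inorganic sulfate. Enzymes of the Golgi place sulfate on heparan, chondroitin, dermatan and keratan chains, on N-glycans and glycolipids and on tyrosines of secreted and membrane proteins, whereas the cytosolic enzymes of the Sult family conjugate steroids, phenols, catecholamines and iodothyronines. In the thyroid axis, Chst8 and Chst9 sulfate the GalNAc caps on the N-glycans of thyrotropin and lutropin, a mark that sets how fast lutropin leaves the blood. Thyroglobulin and the thyrotropin receptor are tyrosine-sulfated proteins, and loss of Tpst2 leaves mice hypothyroid.

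The 5 members with the largest differences between genotypes, 4 in the thyroid and Hs6st2 in the pituitary, are shown first by their promoter, 250 bases before to 50 bases after the start that RefSeq gives on GRCm38.p6. Capitals mark the 5-letter core of a cAMP response element (TGACG, either strand) or the 6-letter core of a thyroid hormone response element (AGGTCA, either strand), the elements read by the thyrotropin receptor's second messenger and by THRB.
Hs3st4, chr7:123982578-123982877, plus strand: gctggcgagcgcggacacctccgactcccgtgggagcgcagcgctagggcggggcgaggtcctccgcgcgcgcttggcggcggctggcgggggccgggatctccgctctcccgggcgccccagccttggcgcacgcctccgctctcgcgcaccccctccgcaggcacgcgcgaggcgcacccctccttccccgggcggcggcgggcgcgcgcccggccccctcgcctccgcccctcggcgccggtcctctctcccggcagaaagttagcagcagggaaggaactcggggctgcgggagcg
Chst1, chr2:92600867-92601166, plus strand: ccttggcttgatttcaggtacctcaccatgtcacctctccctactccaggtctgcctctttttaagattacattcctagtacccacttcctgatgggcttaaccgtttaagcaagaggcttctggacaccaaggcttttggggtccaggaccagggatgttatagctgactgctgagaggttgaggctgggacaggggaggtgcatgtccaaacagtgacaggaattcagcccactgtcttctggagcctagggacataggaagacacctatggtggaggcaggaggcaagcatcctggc
Hs3st3a1, chr11:64435082-64435381, plus strand: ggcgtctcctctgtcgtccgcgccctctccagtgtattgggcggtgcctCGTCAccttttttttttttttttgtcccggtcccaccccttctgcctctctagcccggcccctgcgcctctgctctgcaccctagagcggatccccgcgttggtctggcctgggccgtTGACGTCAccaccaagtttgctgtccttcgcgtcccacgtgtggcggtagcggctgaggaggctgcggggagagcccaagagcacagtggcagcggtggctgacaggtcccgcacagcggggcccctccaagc
Chst2, chr9:95407221-95407520, minus strand: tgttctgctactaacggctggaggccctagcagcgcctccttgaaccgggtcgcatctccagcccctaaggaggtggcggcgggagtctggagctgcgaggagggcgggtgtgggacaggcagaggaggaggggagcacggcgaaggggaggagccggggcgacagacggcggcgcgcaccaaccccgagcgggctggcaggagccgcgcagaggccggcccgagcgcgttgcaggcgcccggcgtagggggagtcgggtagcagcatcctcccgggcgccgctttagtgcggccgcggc
Hs6st2, chrX:51681553-51681852, minus strand: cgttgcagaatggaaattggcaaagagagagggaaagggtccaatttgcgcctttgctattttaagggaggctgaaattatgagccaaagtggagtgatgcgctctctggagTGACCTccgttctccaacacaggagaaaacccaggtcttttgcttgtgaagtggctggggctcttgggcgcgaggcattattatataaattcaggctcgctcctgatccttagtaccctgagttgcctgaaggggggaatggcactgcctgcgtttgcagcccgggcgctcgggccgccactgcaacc
The Hs3st3a1 window held 3 matches to TGACG, of which a pair overlap in the palindrome TGACGTCA. The Hs6st2 window held 1 match to AGGTCA, on the strand opposite to the gene, and the other 3 windows held neither core. Among 32851 mouse promoters of this length in the same source, 20.81% held TGACG, 1.79% held TGACGTCA and 16.26% held AGGTCA. The start used lies 1410 bases from the start GENCODE gives for Chst1, 548 bases for Chst2 and 254 bases for Hs6st2. Other starts of these genes were not searched. By the GENCODE start of Hs6st2, its whole window, with the AGGTCA match, lies downstream of the start.

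Libraries held 14902330 to 21230050 reads in genes, and values are the deposited CPM, in which a gene's reads are scaled to the size of its library, after a joint normalization of all 18 libraries. A difference is K146Q minus WT in log2(CPM + 0.5) with its standard error, and a gene passed at an adjusted p under 0.05 in limma's test over all genes of that tissue. A gene entered the test with at least 0.5 CPM in 3 of the 6 libraries. With 3 mice against 3, an exact permutation test (two-sided) cannot give a p below 0.1, and every member that passed in the pituitary or thyroid reached that floor. Values at the floor do not overlap between genotypes. This held for 1439 of 15761 tested genes in the hypothalamus, 4815 of 15589 in the pituitary and 7946 of 15200 in the thyroid. Among tested members it held for 3 of 37, 11 of 37 and 26 of 35. Thrb itself was read at 26.1 to 30.0 CPM in all 6 hypothalami. It was higher in K146Q than in WT pituitaries (142 to 184 against 97.7 to 106 CPM) and lower in K146Q than in WT thyroids (4.98 to 7.19 against 14.9 to 16.3 CPM), which does not check the one-base knock-in. The WT thyroid of mouse 1 carried more pituitary and airway RNA than the others (Tshb at 35.9 CPM against 1.88 to 5.69 CPM, Bpifa1 at 578 CPM against 55.3 to 279 CPM). Over the hypothalami, the 4 choroid plexus markers summed to 31.7 to 33.7 CPM in mice 1, 43 and 83 and to 1031 to 1125 CPM in mice 2, 60 and 62.

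WT mice give the level of each gene in the 3 tissues. On the scale of mean CPM per kilobase of exon, the hypothalamus was led by Sult4a1, a brain enzyme of the cytosolic family with no settled substrate, at 135 CPM per kb, followed by Chst1, which sulfates galactose in keratan chains, at 65.2, and Papss1 at 22.9. In the pituitary, Papss1 came first at 31.0 CPM per kb, then Chst12, a chondroitin 4-O-sulfotransferase, at 20.7 and Sult4a1 at 15.6. In the thyroid, Papss2 stood at 126 CPM per kb and Papss1 at 53.8, ahead of the N-deacetylase/N-sulfotransferase Ndst1 at 26.6 and the heparan 6-O-sulfotransferase Hs6st1 at 26.4. The last 2 overlapped on this scale, 24.2 to 27.9 CPM per kb for Ndst1 and 25.3 to 27.7 CPM per kb for Hs6st1 over the 3 WT thyroids.

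**Figure D1:**
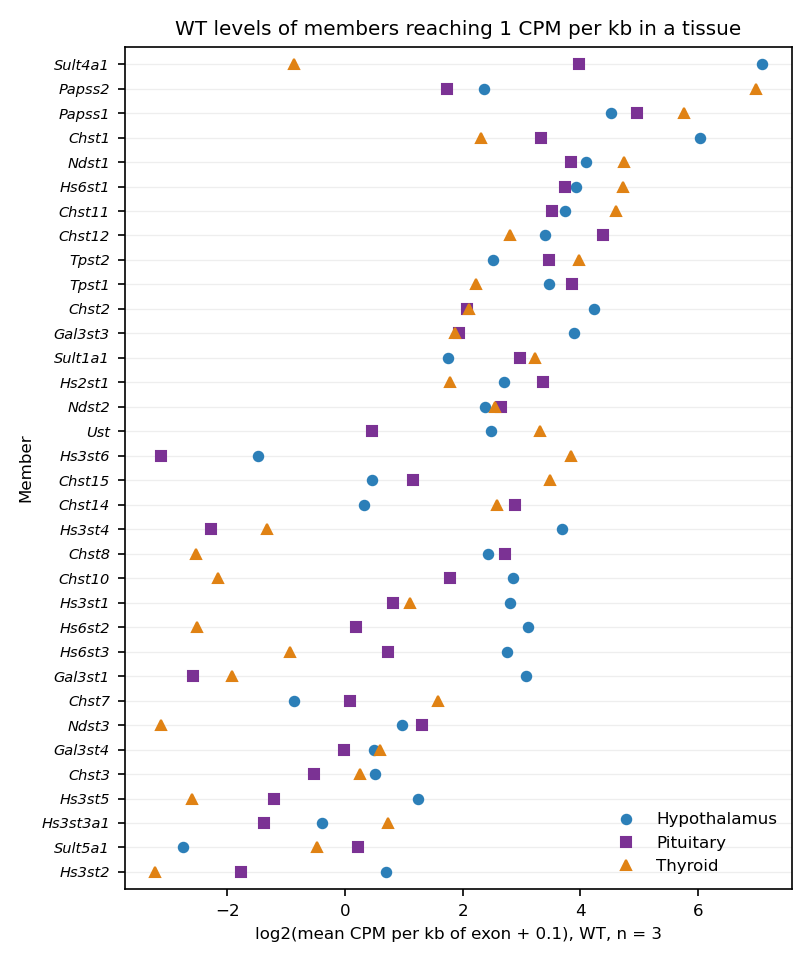
Mean level of each member in WT mice (x axis, log2 of CPM per kilobase of exon plus 0.1, n = 3 mice) by tissue, for members whose mean reached 1 CPM per kb somewhere. Thyroid triangles stand far right of the other tissues for Papss2 and Hs3st6 and far left for Sult4a1, Chst8 and Chst10.

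Between WT thyroid and WT pituitary, 15 of 42 tested members were higher in the thyroid and 16 were lower, beside 37% and 38.6% of all genes (75.6% in all). Hs3st6, a heparan 3-O-sulfotransferase, was read at 17.4 to 22.4 CPM in thyroids and at 0 to 0.0570 CPM in pituitaries, and Papss2 at 457, 549 and 405 CPM against 12.6, 14.4 and 9.17 CPM. The differences were 5.25 ± 0.15 (SE) and 5.24 ± 0.14 on the log2 scale. The opposite held for the GalNAc-4-sulfotransferase Chst8, at 36.6, 43.7 and 35.9 CPM in pituitaries and 0.253, 0.506 and 0.541 CPM in thyroids, for Ndst3 and for the HNK-1 sulfotransferase Chst10, whose thyroid minus pituitary differences were -5.40 ± 0.13, -5.23 ± 0.17 and -4.36 ± 0.19. Between WT pituitary and WT hypothalamus, 14 of 42 members were higher in the pituitary and 24 were lower, beside 37% and 35.9% of all genes (73% in all). Gal3st1, which makes the myelin lipid sulfatide, was at 15.7 to 18.7 CPM in hypothalami and at 0 to 0.228 CPM in pituitaries (-4.80 ± 0.26), and Sult5a1 was higher in the pituitary (2.85 ± 0.22). Chst8 did not pass between these tissues (0.29 ± 0.13, adjusted p = 0.0592). When the 10 highest genes were left out of the totals, 63.0% in place of 50.8% of the passing genes were higher in pituitary than in hypothalamus, and 36.5% in place of 49.0% were higher in thyroid than in pituitary, with the median of all genes at 0.25 and -0.27.

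In the thyroid, the sulfation genes of K146Q mice parted from those of WT mice in both directions. Of 35 members tested, 22 passed, 12 of them higher and 10 lower, beside 37.8% of all tested genes (19.7% higher, 18.1% lower). Heparan and keratan sulfotransferases led the rises, from Hs3st4 and Chst1 to Hs3st3a1 and Chst2, and both PAPS synthases, several chondroitin enzymes and Sult1a1 were among the falls. The median difference of the 35 members was 0.01 and that of all genes -0.03. Leaving out mouse 62 left 12 members past the test and leaving out any other mouse left 16 to 19, whereas 13 of the 22 passed in every fit in which they were tested. Gal3st2, among the 13, entered the test through the K146Q group alone. It was tested in only 3 of the fits that left out a mouse, so its place there says little. With totals that left out the 10 highest genes, the median of all thyroid genes moved to -0.12 and the share of passing genes that were higher from 52.1% to 40.9%, with 21 members passing.

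**Figure D2:**
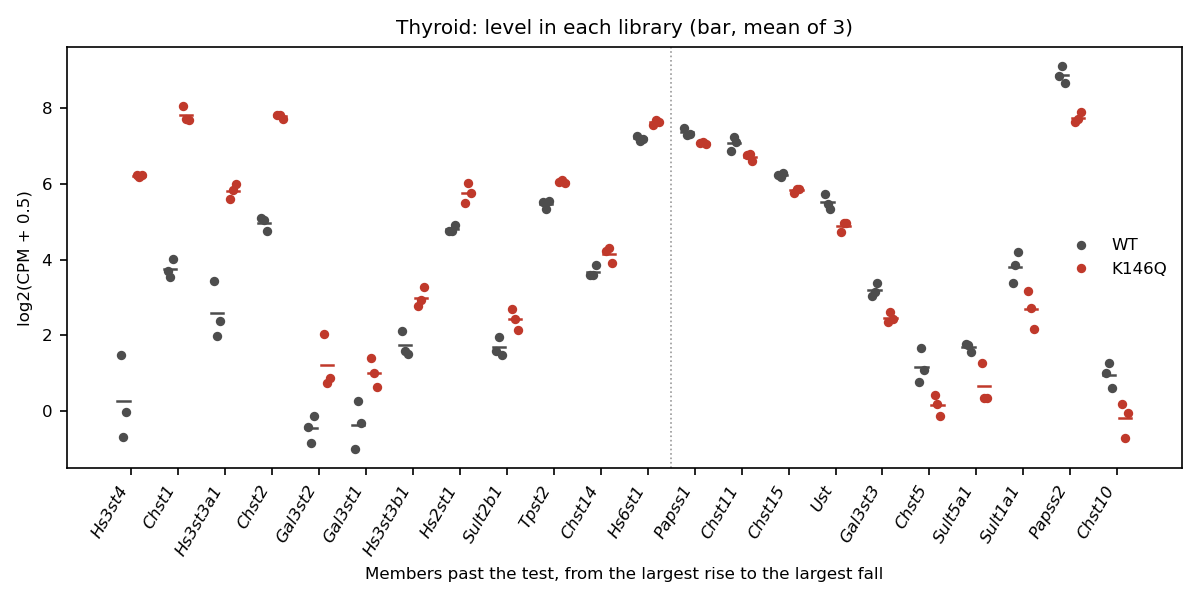
Level of each of the 22 members past the test in the thyroid (y axis, log2 of CPM + 0.5), 1 point per mouse, bars at the mean of 3. WT and K146Q mice do not overlap for any of them, nor for 7946 of all 15200 tested genes. The widest gaps are those of Hs3st4, Chst1, Hs3st3a1 and Chst2.

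Papss2, one of the 2 PAPS synthases, was at 457, 549 and 405 CPM in WT thyroids and at 197, 207 and 237 CPM in K146Q thyroids, 2.20-fold lower (-1.13 ± 0.13, adjusted p = 0.000694). Papss1 was at 178, 156 and 159 CPM in WT and 135, 137 and 131 CPM in K146Q thyroids (-0.29 ± 0.08, adjusted p = 0.025). Both sets were separate, with the gap narrower for Papss1, whose call was lost without mouse 1, 60, 62 or 83. By mean CPM over all 6 thyroids Papss2 came first of the members, followed by Ndst1 and Hs6st1, whereas in the K146Q thyroids alone its mean of 214 CPM stood beside 226 CPM for Chst1, 224 CPM for Ndst1 and 219.9 CPM for Chst2.

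Heparan sulfate 3-O-sulfotransferases, which add the rarest heparan mark and with it sites for antithrombin, growth factors and viral proteins, include Hs3st4, which had the largest difference of any member. It was at 2.27, 0.127 and 0.481 CPM in WT thyroids and at 74.6, 72.0 and 74.3 CPM in K146Q thyroids (5.96 ± 0.47, adjusted p = 0.000147). Mouse 1 was the highest of the WT group, and all 3 WT mice lay far below every K146Q mouse. Hs3st3a1 rose from 10.3, 3.48 and 4.69 CPM to 47.6, 56.1 and 62.7 CPM (3.20 ± 0.33) and its neighbour in sequence Hs3st3b1 from 3.85, 2.53 and 2.35 CPM to 6.39, 7.11 and 9.20 CPM (1.25 ± 0.22). WT mouse 1 was again the highest of its group for both, and still below every K146Q mouse. Of the 50-base windows of Hs3st3a1, 10.7% also occur in other genes, in Hs3st3b1 more than in any other, so a small part of the reads could be split between genes. Hs3st3a1 also overlaps F930015N05Rik on the opposite strand. In addition, 7 other members past a test between genotypes (Hs3st4, Hs3st2, Hs6st1, Chst15, Gal3st3, Sult1a1 and Sult2b1) overlap an opposite-strand gene by 61 to 1206 bases. The counting is not stated to use strand, so reads of such pairs cannot be told apart. Hs3st1 (4.09 to 4.99 against 4.70 to 6.10 CPM) and Hs3st6 (17.4 to 22.4 against 14.9 to 18.5 CPM) did not pass, and Hs3st2 and Hs3st5 were at most 0.541 CPM in every thyroid. Added over the 7 genes of this group, the WT mean of 18.8 CPM per kb stood against 53.25 in K146Q mice.

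Of the other heparan enzymes, Hs2st1 and Hs6st1 rose. Hs2st1, the only 2-O-sulfotransferase, rose from 26.5, 26.7 and 29.4 CPM to 44.3, 64.1 and 53.4 CPM (0.94 ± 0.14, adjusted p = 0.00167). Hs6st1 rose from 154, 140 and 144 CPM to 187, 206 and 199 CPM (0.43 ± 0.08, adjusted p = 0.0045), while Hs6st2 was low in both genotypes (0.505 to 0.633 against 0.529 to 0.938 CPM). Hs6st3 was at 0.568, 0.569 and 1.02 CPM in WT and 0.235 to 0.410 CPM in K146Q thyroids and entered the test through the WT group alone (adjusted p = 0.0981). Ndst1, the main enzyme that starts sulfation along heparan, was at 230, 231 and 201 CPM in WT and 177, 248 and 247 CPM in K146Q thyroids (0.01 ± 0.14), and the groups overlapped. Ndst2 did not pass either (0.23 ± 0.09, adjusted p = 0.0698).

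Of 4 tested enzymes that sulfate carbon 6 of galactose or GlcNAc, as in keratan sulfate, 2 rose and 1 fell, beside 19.7% and 18.1% of all tested genes. Chst1 went from 12.6, 11.1 and 15.6 CPM to 265, 208 and 204 CPM, 17.2-fold (4.06 ± 0.15, adjusted p = 1.21e-05), and Chst2, which also builds L-selectin ligands, from 33.8, 32.7 and 26.5 CPM to 225, 224 and 210 CPM, 7.09-fold (2.81 ± 0.10, adjusted p = 1.22e-05). For both genes the 3 mice of each genotype lay close together and far from the other genotype. By level per kilobase of exon, Chst1 was the first of all members in K146Q thyroids, at 84.2 CPM per kb. The related Chst5 fell from 1.2, 2.66 and 1.62 CPM to 0.843, 0.646 and 0.410 CPM (-1.01 ± 0.28, adjusted p = 0.0266), on 7 to 42 reads, and its call was lost without mouse 2, 43, 62 or 83. Chst7 did not pass (0.37 ± 0.13, adjusted p = 0.0513), and Chst4, the enzyme of lymph node venules, was at 0 in every thyroid.

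Of 6 tested chondroitin and dermatan enzymes, 3 fell and 1 rose, beside 18.1% and 19.7% of all tested genes. Chst15, which makes the doubly sulfated GalNAc unit, fell from 74.0, 72.3 and 77.6 CPM to 53.9, 58.1 and 57.7 CPM (-0.40 ± 0.07, adjusted p = 0.00505). Ust, a 2-O-sulfotransferase of iduronic acid, fell from 52.8, 43.8 and 40.1 CPM to 26.0, 30.7 and 31.0 CPM (-0.63 ± 0.13), and the 4-O-sulfotransferase Chst11 from 117, 150 and 136 CPM to 108, 109 and 97.3 CPM (-0.35 ± 0.11, adjusted p = 0.0355). Chst11 passed in only 1 of the 6 fits that left out a mouse. Chst14, which sulfates dermatan, rose from 11.6, 11.5 and 13.9 CPM to 18.3, 19.3 and 14.4 CPM (0.47 ± 0.15, adjusted p = 0.0374). That call was lost without mouse 1, 2, 60 or 62, with no filter and with totals that left out the 10 highest genes. Chst12 (0.01 ± 0.12) and Chst3 (-0.36 ± 0.22) did not pass.

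The sulfatide enzyme Gal3st1 was at 0, 0.696 and 0.301 CPM in WT and 2.13, 1.53 and 1.06 CPM in K146Q thyroids (1.37 ± 0.36, adjusted p = 0.0201), on 0 to 43 reads. Gal3st2 was at 0.253, 0.0633 and 0.421 CPM in WT and at 3.57, 1.18 and 1.35 CPM in K146Q thyroids (1.67 ± 0.38), and entered the test through the K146Q group alone. Of its 50-base windows, 71.2% also occur in other genes, in Gal3st2b more than in any other. Gal3st3 fell from 7.70, 8.35 and 9.86 CPM to 4.56, 5.64 and 4.87 CPM (-0.72 ± 0.15, adjusted p = 0.0086). Chst10 fell from 1.52, 1.90 and 1.02 CPM to 0.644, 0.118 and 0.469 CPM (-1.14 ± 0.30), and Chst8 was at 0.253 to 0.541 CPM in WT and 0.545 to 0.646 CPM in K146Q thyroids (0.27 ± 0.22). Gal3st1, Gal3st2, Chst10 and Chst8 rested on at most 72 reads in any thyroid, and the calls of Chst10 (without mouse 1, 2 or 62) and Gal3st1 (without mouse 60 or 62) were lost when a mouse was left out. Chst9 and Chst13 stayed under the filter.

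Of the tyrosine enzymes, Tpst2 rose from 45.3, 39.9 and 45.8 CPM to 65.5, 67.4 and 64.0 CPM, 1.5-fold (0.58 ± 0.08, adjusted p = 0.00159). Tpst1 was at 14.1, 11.3 and 12.7 CPM against 11.7, 10.3 and 10.4 CPM (-0.22 ± 0.13, adjusted p = 0.216), with the groups overlapping. Of the cytosolic enzymes, the phenol sulfotransferase Sult1a1 fell from 9.85, 14.1 and 17.9 CPM to 8.57, 6.05 and 3.99 CPM (-1.13 ± 0.30, adjusted p = 0.0207) and Sult5a1 from 2.90, 2.85 and 2.47 CPM to 1.93, 0.764 and 0.762 CPM (-1.04 ± 0.28). Sult2b1, which sulfates cholesterol, rose from 2.53, 3.42 and 2.29 CPM to 5.95, 4.88 and 3.93 CPM (0.74 ± 0.21, adjusted p = 0.0274). Each of these 3 calls was lost in 4 of the 6 fits that left out a mouse. Sult4a1 was at 1.39, 1.46 and 0.541 CPM against 0.644, 0.411 and 0.117 CPM (-0.86 ± 0.34, adjusted p = 0.0836). Sult1b1 (0.180 to 0.764 CPM) and Sult1d1 (0 to 0.316 CPM) were low in both genotypes, Sult1c1 and Sult1c2 were at or near 0, and the 21 members under the filter reached at most 1.58 CPM, with 10 of them at 0 in every thyroid.

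Marker RNA of other cell types in the dissected thyroid also differed between genotypes, and its part in the values above was not tested. All 3 parathyroid markers and all 5 adipocyte markers were lower in K146Q mice, with sums of 3454 to 6409 against 523 to 1569 CPM and 687 to 768 against 97.4 to 193 CPM. Of the 3 C cell markers, Calca and Ret were lower and Calcb higher (sum 2165 to 2673 against 207 to 351 CPM). Of 5 tested leukocyte markers, 4 were higher (sum 120 to 169 against 322 to 370 CPM), as were 3 of 6 endothelial markers (sum 687 to 782 against 896 to 944 CPM). Of 6 fibroblast markers, the collagens Col1a1, Col1a2 and Col3a1 were higher and Dcn and Pdgfra lower (sum 1030 to 1290 against 2490 to 2858 CPM). Of 8 cartilage markers 3 were tested, and Comp (0.886 to 1.39 against 51.2 to 77.5 CPM) and Col9a1 (2.91 to 4.69 against 5.70 to 6.99 CPM) were higher (sum of the list 6.95 to 8.48 against 59.97 to 87.86 CPM). Col11a1 did not pass, and Matn1, Matn3 and Col2a1 were at 0 to 0.470 CPM in every thyroid. Skeletal muscle markers varied widely within both groups (sum 273 to 5663 against 600 to 3404 CPM) and none passed. Among 8 follicular cell markers, Tshr, Pax8 and Nkx2-1 rose, Foxe1 and Duox2 fell, and thyroglobulin (Tg) was at 293439 to 357296 CPM in WT and 83869 to 130421 CPM in K146Q mice. Tg did not pass in this fit, in which the variance expected at its extreme level set its error at 5.14, and passed without that trend (-1.71 ± 0.18, adjusted p = 0.00127).

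In the pituitary, none of the 9 members tested there that rose in the thyroid passed the test. Beside 9.86% of all genes tested there, none of 9 is near the common share. Hs3st4, Gal3st1 and Gal3st2 were under the filter. Chst10 was the single member that passed in both tissues, and the share of all genes that did so is not given here. Of 37 members tested, 5 rose and 2 fell, beside 6.36% and 3.5% of all tested genes (9.86% in all). Hs6st2 led the rises, and Chst10 and Tpst1 fell. The median difference of the 37 members was -0.04 and that of all genes -0.01. Leaving out mouse 60 left 3 members past the test, leaving out mouse 62 left 4 and leaving out any other mouse 5 to 7, and the 3 that passed in every fit in which they were tested were Hs6st2, Chst9 and Chst10. The calls of Hs3st1 and Tpst1 were lost without mouse 60 or 62, that of Hs3st2 without mouse 1, 2 or 60 and that of Chst13 without mouse 2 or 43, and the last 2 were also lost without the variance trend. With totals that left out the 10 highest genes, the share of passing genes that were higher went from 64.5% to 48.8%, and 8 members passed.

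**Figure D3:**
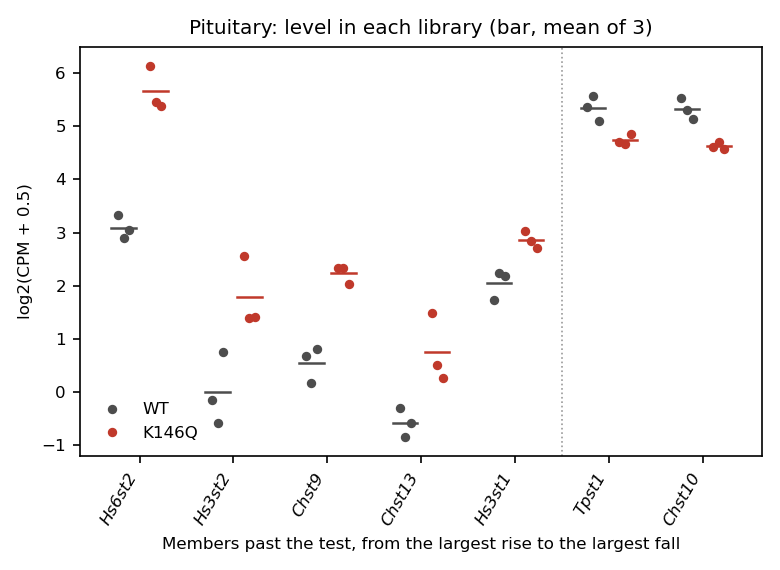
Level of each of the 7 members past the test in the pituitary (y axis, log2 of CPM + 0.5), 1 point per mouse, bars at the mean of 3. Hs6st2 shows the widest gap, and the 3 K146Q points of Chst13 and Hs3st2 are spread more than those of Chst9.

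Hs6st2, which adds 6-O-sulfate to heparan, was at 9.52, 6.98 and 7.75 CPM in WT pituitaries and at 70.0, 43.4 and 41.1 CPM in K146Q pituitaries, 6.37-fold higher (2.57 ± 0.20, adjusted p = 9.24e-05). Its close relatives Hs6st1 (72.8, 75.5 and 72.9 against 66.3, 69.2 and 77.6 CPM) and Hs6st3 (2.28 to 3.03 against 1.58 to 2.43 CPM) did not pass. Hs3st2 rose from 0.400, 0.172 and 1.2 CPM to 5.37, 2.14 and 2.16 CPM (1.78 ± 0.39, adjusted p = 0.0208) and Hs3st1, which makes the antithrombin site, from 2.85, 4.23 and 4.04 CPM to 7.64, 6.64 and 6.02 CPM (0.80 ± 0.17, adjusted p = 0.0193). The K146Q mouse 60 was the highest of its group for all 3 that rose. Hs3st4, Hs3st3a1 and Chst1, which led in the thyroid, were at 0.0516 to 0.562, 0.817 to 1.42 and 21.8 to 30.3 CPM over the 6 pituitaries, with none past the test or, for Hs3st4, tested. Ndst1 (129, 103 and 120 against 109, 107 and 120 CPM) and Hs2st1 (0.03 ± 0.09) were 2 of the 3 most abundant members by mean CPM, with Papss1, and did not pass.

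Of the GalNAc-4-sulfotransferases that finish the glycans of pituitary hormones, Chst8 was at 36.6, 43.7 and 35.9 CPM in WT and 36.8, 39.3 and 30.9 CPM in K146Q pituitaries (-0.12 ± 0.11, adjusted p = 0.566). Chst9, far lower, rose from 1.11, 0.629 and 1.25 CPM to 4.54, 4.54 and 3.61 CPM, 4.24-fold (1.68 ± 0.21, adjusted p = 0.00115). Of their substrates, the thyrotropin subunits rose, Tshb from 539, 235 and 593 CPM to 8183, 7166 and 5600 CPM (4.03 ± 0.30) and Cga from 3340, 3157 and 4007 CPM to 20723, 19367 and 16205 CPM (2.42 ± 0.14). Lhb (612 to 807 against 690 to 723 CPM) and Fshb (504 to 760 against 640 to 794 CPM), the subunits of the gonadotropins, did not pass. Of the receptors, Tshr was at 1.37 to 2.55 CPM in the pituitary, Lhcgr at 0 to 0.0572 CPM and Fshr at 0. Chst10, which sulfates the HNK-1 epitope, fell from 45.6, 39.0 and 34.9 CPM to 23.8, 25.6 and 23.3 CPM (-0.70 ± 0.11, adjusted p = 0.00376), while B3gat1, which makes its acceptor, rose from 2.09, 1.83 and 1.31 CPM to 3.72, 4.80 and 6.57 CPM (1.28 ± 0.22).

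Tpst1 fell from 40.4, 46.9 and 33.7 CPM to 25.6, 24.9 and 28.5 CPM (-0.60 ± 0.12, adjusted p = 0.0151), and Tpst2 was at 26.8, 29.6 and 35.7 against 31.4, 32.0 and 30.2 CPM (0.03 ± 0.11). Chst13, a chondroitin 4-O-sulfotransferase, was at 0.311, 0.0572 and 0.171 CPM in WT and at 2.32, 0.919 and 0.702 CPM in K146Q pituitaries (1.33 ± 0.32, adjusted p = 0.0319), on 1 to 45 reads, and entered the test through the K146Q group alone. Papss1 was at 93.6, 95.2 and 95.4 CPM against 80.2, 81.3 and 86.1 CPM (-0.20 ± 0.07, adjusted p = 0.0959) and Papss2 at 12.6, 14.4 and 9.17 CPM against 8.10, 8.83 and 7.22 CPM (-0.54 ± 0.17, adjusted p = 0.0764), with no overlap for either. Of the cytosolic enzymes none passed. Sult4a1 was at 38.5 to 39.8 against 35.8 to 38.1 CPM, Sult1a1 at 7.56, 10.5 and 16.8 against 8.77, 9.44 and 7.37 CPM and Sult2b1 at 2.39 to 4.58 against 2.41 to 4.08 CPM. Sult1c1 was under the filter, with 0.267, 0.0572 and 0.171 CPM in WT and 1.65, 0.664 and 0.451 CPM in K146Q pituitaries, and so was Gal3st1 at 0 to 0.464 CPM. Sult1b1, Sult1c2 and Sult1d1 were among the 11 members at 0 in every pituitary.

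Markers of cell types in the pituitary also differed between genotypes, and their part in the values above was not tested. All 4 thyrotroph markers (Tshb, Cga, Trhr and Dio2) were higher in K146Q pituitaries, with sums of 3485 to 4711 CPM in WT and 22563 to 29922 CPM in K146Q mice. Within WT, mouse 2 had the lowest Tshb and the lowest Hs6st2, Chst9, Chst13 and Hs3st2, but the highest Hs3st1. Within K146Q, mouse 60 had the highest Tshb, Hs6st2, Chst13, Hs3st2 and Hs3st1, and equalled mouse 62 in Chst9 (4.54 CPM). Of the members that fell, Chst10 was in the middle of its group in both mouse 2 and mouse 60. Tpst1 was highest of WT in mouse 2 and in the middle of K146Q in mouse 60. These ranks of 3 mice per genotype were not tested. Of 4 tested leukocyte markers, 3 were also higher (sum 62.7 to 70.6 against 102 to 153 CPM). Their sum, too, was lowest of WT in mouse 2 and highest of K146Q in mouse 60. Prl was lower (19074 to 30662 against 6929 to 8664 CPM), as was the somatotroph receptor Ghrhr (120 to 149 against 90.7 to 104 CPM). Only 1 of 2 lactotroph markers (Prl and Drd2) and 1 of 2 somatotroph markers (Gh and Ghrhr) passed. Of 5 tested cartilage markers 3 were lower, and of 4 neuron markers 2 were higher.

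In the hypothalamus, no member passed of 37 tested in limma's test, nor in edgeR's or DESeq2's, beside 0% of all 15761 tested genes, of which 645 had an unadjusted p under 0.05 and DESeq2 called 9. Chst15 and Gal3st3 were the 2 members with an unadjusted p under 0.05. Chst15 was at 10.3, 7.46 and 8.24 CPM in WT and 11.9, 14.7 and 14 CPM in K146Q hypothalami (0.62 ± 0.13, adjusted p = 0.641), and the groups did not overlap. Gal3st3 was at 33.9 to 36.9 against 36.8 to 41.0 CPM (0.14 ± 0.06, adjusted p = 0.998). The 3 most abundant members by mean CPM overlapped between genotypes, Sult4a1 at 338, 343 and 339 against 352, 350 and 334 CPM (0.02 ± 0.04), Chst1 at 176, 168 and 180 against 175, 176 and 189 CPM (0.04 ± 0.05) and Ndst1 at 144, 142 and 136 against 135, 139 and 140 CPM (-0.03 ± 0.04). The members that led the rises in another tissue all overlapped between genotypes here, Chst1 among them. Hs3st4 was at 39.1 to 43.3 against 39.7 to 50.5 CPM and Hs3st3a1 at 2.31 to 3.02 against 2.00 to 2.78 CPM. Hs6st2 was at 60.8 to 70.0 against 63.7 to 72.2 CPM and Chst2 at 126 to 145 against 135 to 141 CPM. Chst9, which rose in the pituitary, did not overlap, at 0.347 to 0.464 CPM in WT and 0.592 to 0.750 CPM in K146Q hypothalami, entered the test through the K146Q group alone and did not pass (0.34 ± 0.20, adjusted p = 0.998). Papss1 (0.05 ± 0.05), Papss2 (-0.05 ± 0.10), Tpst1 (0.08 ± 0.07), Tpst2 (-0.01 ± 0.07), Chst8 (-0.07 ± 0.07), Chst10 (-0.04 ± 0.07), Gal3st1 (-0.03 ± 0.09), Hs6st1 (0.06 ± 0.05), Sult1a1 (-0.07 ± 0.14) and Sult2b1 (-0.18 ± 0.18) did not pass. The 19 members under the filter reached at most 0.785 CPM, and 9 of them, Sult1b1 and Sult1d1 included, were at 0. Sult1c2 was at 0 to 0.289 CPM in WT and 0.0538 to 0.785 CPM in K146Q hypothalami. The 7 Sult2a genes and Sult3a1, enzymes known from liver, were at 0 to 0.0578 CPM in all 18 libraries.

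Whether the genotype acts differently in the pituitary and the thyroid was tested in a single fit to all 18 libraries, in which 22 of 42 members differed between the tissues, 9 with the more positive difference in the pituitary and 13 in the thyroid, beside 33.8% of all tested genes (17.4% and 16.4%). Hs3st4 had the largest gap (pituitary minus thyroid -6.06 ± 0.51), then Chst1 (-4.12 ± 0.18), Hs3st3a1 (-3.22 ± 0.38) and Chst2 (-2.76 ± 0.12). Toward the pituitary stood Hs6st2 (2.35 ± 0.25), Hs3st2 (1.83 ± 0.44), Chst9 (1.79 ± 0.25) and Chst13 (1.43 ± 0.36). With edgeR and with DESeq2 on the read counts, the calls of Hs3st2 and Chst13 in this comparison were lost (adjusted p up to 0.289 and 0.068). Papss2 had the more negative difference in the thyroid (0.59 ± 0.20, adjusted p = 0.034), and Tpst2 rose in the thyroid without doing so in the pituitary (-0.55 ± 0.12, adjusted p = 0.00248). Chst10, which fell in both tissues, did not pass the test between them (0.45 ± 0.27, adjusted p = 0.217), nor did Tpst1 (-0.38 ± 0.16, adjusted p = 0.0819). With mouse number as a block, 23 members differed.

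**Figure D4:**
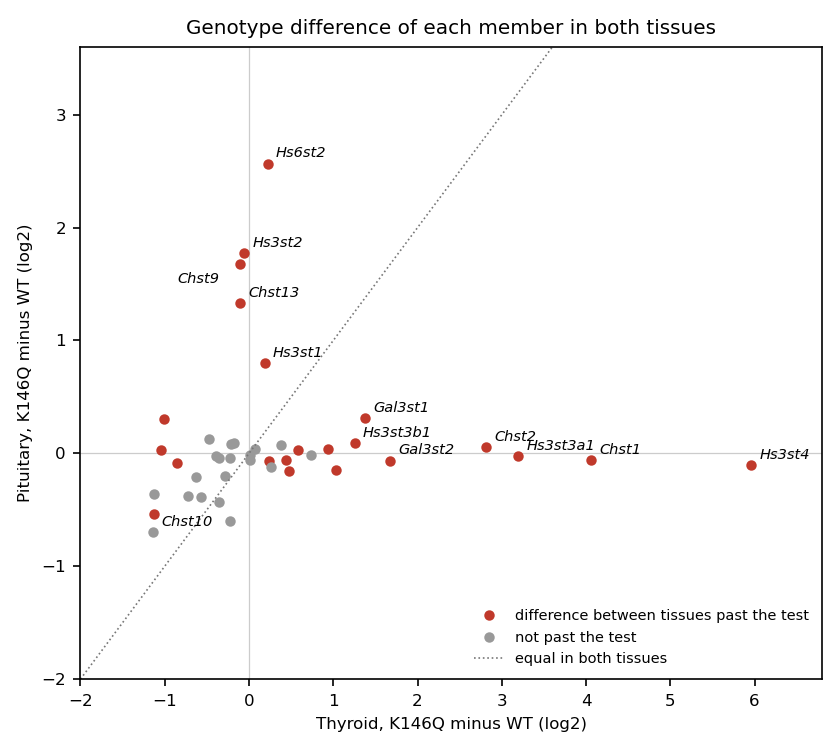
Difference between genotypes of each of the 42 tested members in the thyroid (x axis, log2) and the pituitary (y axis, log2), in red where the tissues differed. The largest rises lie along the axes, Hs3st4, Chst1, Hs3st3a1 and Chst2 with a thyroid difference and Hs6st2, Hs3st2, Chst9 and Chst13 with a pituitary difference, and none rose past 1 in both tissues. Among the points below 0 in both tissues are Chst10 (thyroid -1.14, pituitary -0.70) and Papss2 (-1.13 and -0.54), although Papss2 did not pass in the pituitary.

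The genes around the sulfotransferases were counted by list. Of the sulfatases, which take sulfate off again, 11 of 14 tested rose in the thyroid and Arsk fell, beside 19.7% and 18.1% of all tested genes, with a median difference of 0.69 against -0.03 for all genes. Sulf1, which trims 6-O-sulfate from heparan outside the cell, went from 14.9, 12 and 15.9 CPM to 38.2, 37.3 and 45.7 CPM (1.47 ± 0.14) and Sulf2 from 488, 338 and 503 CPM to 839, 876 and 789 CPM (0.93 ± 0.16). Arsg, a lysosomal enzyme of heparan breakdown, rose as well (1.22 ± 0.19). In the pituitary 2 of 13 tested rose, Ids among them (0.55 ± 0.09), and Sulf2 fell (-0.54 ± 0.10), beside 6.36% and 3.5% of all tested genes.

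Of the proteoglycan core proteins, the carriers of the sulfated chains, 12 of 21 tested rose in the thyroid and Dcn and Ncan fell, beside 19.7% and 18.1% of all tested genes (median 0.52). Fmod, a keratan sulfate carrier, was at 0.568, 1.65 and 1.98 CPM in WT and 41.0, 66.1 and 55.0 CPM in K146Q thyroids (4.91 ± 0.33). The heparan sulfate carriers Gpc4 (2.53 ± 0.13) and Gpc6 (1.67 ± 0.13) and the dermatan sulfate carrier Bgn (1.62 ± 0.13) followed. In the pituitary 4 of 23 rose, Gpc6 (0.71 ± 0.12) and Gpc4 (0.60 ± 0.08) among them, and Acan (-0.83 ± 0.21) and Sdc1 (-0.73 ± 0.09) fell, beside 6.36% and 3.5% of all tested genes (median 0.01). The chain builders moved in part. Ext1 (1.32 ± 0.10) and Extl3 (0.42 ± 0.08) rose and Glce (-0.58 ± 0.10) fell of 12 linker and heparan genes in the thyroid (median 0.06). Of 8 chondroitin and dermatan genes there, 4 rose, led by Chsy3 (1.31 ± 0.17), Dse (1.06 ± 0.16) and Chsy1 (0.88 ± 0.11), and Dsel fell (median 0.21). The shares of all tested thyroid genes were 19.7% higher and 18.1% lower. In the pituitary only Xylt1, which starts the chains, rose among the 20 genes of these 2 lists (1.21 ± 0.13), beside 6.36% of all tested genes.

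Of 9 tested genes of PAPS supply and sulfate transport, apart from the synthases, none passed in limma's test in the thyroid (0 with an unadjusted p under 0.05), and Slc26a11 alone rose in the pituitary (0.46 ± 0.12). Of the genes that make the acceptors of Chst8, Chst9 and Chst10, B3gat2 rose (1.90 ± 0.17) and B4galnt4 fell (-1.40 ± 0.27) of 3 tested in the thyroid, and B3gat1 alone rose of 4 in the pituitary. Beside both lists, 37.8% of all tested genes passed in the thyroid and 9.86% in the pituitary. Among the glycoprotein hormone genes in the thyroid, the receptor Tshr rose from 284, 203 and 271 CPM to 490, 525 and 552 CPM (1.06 ± 0.14). Tshb, Cga, Lhb and Fshb were highest there in WT mouse 1 and did not pass, Lhcgr was under 0.1 CPM and Fshr at 0. No gene of any of the 7 lists passed in the hypothalamus, where Cga was at 7.40 to 21.1 CPM, Tshb at 2.55 to 8.23 CPM, Lhb at 1.03 to 1.45 CPM, Fshb at 0.405 to 1.21 CPM, Tshr at 0.901 to 2.67 CPM and Lhcgr at 0.181 to 0.751 CPM, with Fshr at 0.

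**Figure D5:**
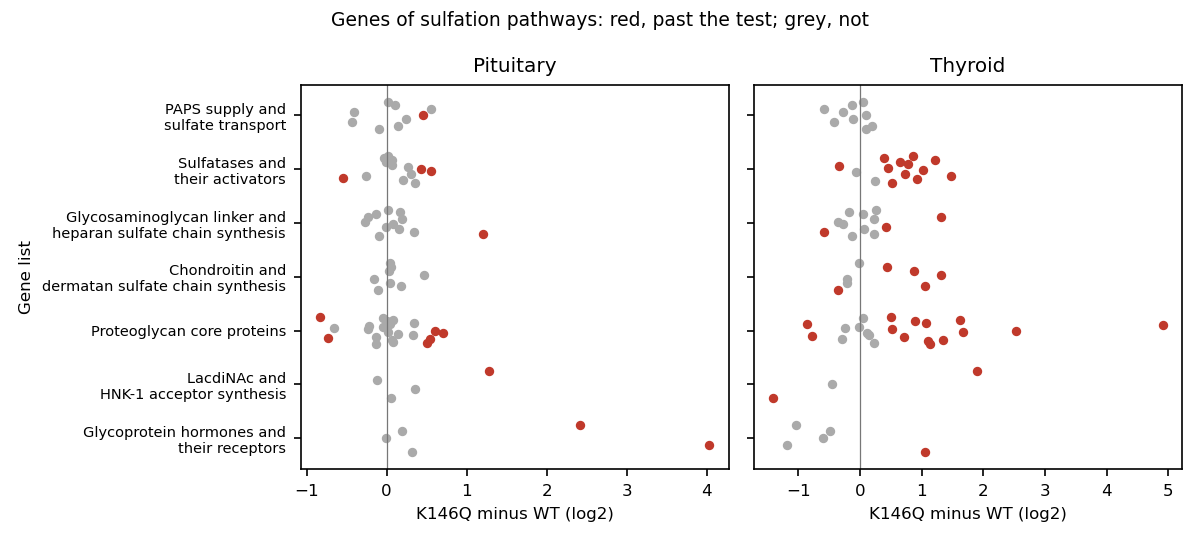
Difference between genotypes (x axis, log2) of each tested gene of 7 lists around sulfation, in the pituitary and the thyroid, in red where the gene passed the test. In the thyroid 11 sulfatase genes and 12 core protein genes lie to the right in red, and in the pituitary the 2 largest values are those of Tshb and Cga.

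The genes whose levels ran most like those of Chst8 over the 18 libraries were another member, Ndst3, the noncoding RNA gene Mirg and the netrin receptor gene Dcc, with Pearson's r of 0.995 for each. These libraries come from only 6 mice and 3 tissues, and Chst8 and Ndst3 were both far lower in the thyroid than in the other tissues, so the correlation is a description of that pattern.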

How the data were processed

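Total RNA of snap-frozen hypothalamus, pituitary and thyroid was sequenced on an Illumina HiSeq, and the submitters' processing notes name bcl2fastq 2.17, Bowtie2 2.1.0, RSEM 1.2.15 and the mouse build mm10. The annotation, the strand setting and the normalization software are not given in the sources used here. The values used are the authors' deposited CPM, a normalized signal per gene and library in 3 tables of 24054 genes, and a deposited column of mean log2 CPM per gene was the same in all 3 tables, so that the 18 libraries were normalized together. The deposited columns of the authors' own comparisons hold log fold changes and test results and were not used. All 100% of the values passed as whole multiples of 1 read, which gave read counts and depth per library. The tolerance was 0.01 read, wider in proportion for genes with many reads, so the highest genes could not fail this check. Genes were joined by symbol, leaving out the 27 symbols that differ between tables.

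Members matched a fixed pattern of symbols. The members and the gene lists were chosen with earlier results of these data known. Named with values were each member past the test, the 3 with the highest mean CPM per tissue, 18 members of known roles in this axis, up to 4 passing genes of largest difference per pathway list and tissue, all glycoprotein hormone genes and the 3 genes most correlated with Chst8. Marker lists of other cell types were tested in the same fits.

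Each tissue was fitted alone in limma 3.58.1 (R 4.3.3) on log2(CPM + 0.5) with a mean-variance trend, keeping genes with at least 0.5 CPM in 3 libraries, with Benjamini-Hochberg adjustment over all of them. Differences between tissues came from 1 fit to all 18 libraries. Read counts went to edgeR 4.0.16 and DESeq2 1.42.0 as alternatives. The same mouse gave all 3 tissues by its number in the labels, and the residuals of same-numbered libraries correlated at -0.03 to 0.17 over 18 pairs. No 2 libraries of a group agreed within counting noise. The p-values of the fits within a tissue measure the spread among 3 mice per genotype. Those of the fit to all 18 libraries rest on a spread pooled over the 3 tissues. That fit took libraries of the same mouse as independent, except where mouse number was a block. Exon lengths and overlaps came from GENCODE M21 on GRCm38, in which all 56 members were found. The fits were tested on simulated data. Of the pathway lists, 1 gene is not reported by name here.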

Additional observations from a re-analysis of the deposited data

Results flagged for a closer look

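The 22 members named here were singled out because their difference between genotypes was not the same in the pituitary and the thyroid, by the test of that difference in the fit to all 18 libraries (22 of 42, beside 33.8% of all tested genes). The values that follow are the pituitary difference minus the thyroid difference on the log2 scale. Members with the more positive difference in the thyroid were Hs3st4 (-6.06), Chst1 (-4.12), Hs3st3a1 (-3.22), Chst2 (-2.76), Gal3st2 (-1.74), Ndst4 (-1.17), Hs3st3b1 (-1.16), Gal3st1 (-1.06), Hs2st1 (-0.91), Chst14 (-0.63), Tpst2 (-0.55), Hs6st1 (-0.49) and Ndst2 (-0.30). Members with the more positive difference in the pituitary were Papss2 (0.59), Hs3st1 (0.61), Sult4a1 (0.78), Sult5a1 (1.07), Chst5 (1.31), Chst13 (1.43), Chst9 (1.79), Hs3st2 (1.83) and Hs6st2 (2.35). Ndst4, Gal3st1, Gal3st2, Chst5, Chst9, Chst13 and Hs3st2 were under 5.5 CPM in all 12 libraries of these tissues. Ndst4 was at 0.126, 0 and 0 CPM in WT and 0.694, 0.470 and 0.645 CPM in K146Q thyroids, under the filter of the thyroid fit, and at 0.854 to 1.94 CPM in the pituitaries. Of the 22, 15 passed in every fit that left out a mouse in which they were tested, and Gal3st1, Hs3st1 and Ndst2 passed in 1 of 6. Chst13, among the 15, was tested in only 3 of these fits. The calls of Hs3st2, Chst13 and Gal3st1 were lost with both edgeR and DESeq2 on the read counts, that of Ndst2 with edgeR and that of Hs3st1 with DESeq2.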

How the results depend on the processing

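With at least 1 CPM required in every library, 4 pituitary members passed in place of 7, 11 in place of 22 differed between pituitary and thyroid, 22 in place of 38 between WT pituitary and hypothalamus and 16 in place of 31 between WT thyroid and pituitary, with fewer members tested in each (30, 22, 22 and 22). Leaving out 1 mouse at a time gave 0 hypothalamus members, 3 to 7 in the pituitary, 12 to 19 in the thyroid, 15 to 22 for the difference between the last 2 tissues, and 32 to 38 and 30 to 31 for the WT comparisons. Among all genes, 625 passed in the pituitary without mouse 60 and 752 without mouse 62, against 1537 with all mice, and 3602 passed in the thyroid without mouse 62 against 5739. With mouse number as a replicate block, 23, 38 and 31 members passed in the 3 comparisons between tissues, against 22, 38 and 31, and Sult1a1 joined the first (adjusted p = 0.026), with no other call of a member changed. Other pseudocounts, no filter, other scalings, no variance trend, edgeR and DESeq2 kept each total of members past the test within 1.5 times, although without the trend 3 members in place of 5 rose in the pituitary. Among all genes of the pituitary, 879 in place of 546 fell with totals that left out the 10 highest genes and 356 without the trend, and in the hypothalamus DESeq2 called 9 in place of 0. Over the 1281 alternative values of 81 results on single members, 1181 kept their side of the threshold, 96 lost the call, 4 gained it and 0 called values changed direction. A change of direction was not counted where neither fit passed the test. Papss2 in the pituitary passed with DESeq2 and without mouse 43, Papss1 there with totals that left out the 10 highest genes, and Sult4a1 in the thyroid without mouse 43. Members under 1 CPM rest on few reads, since 1 read was worth 0.0445 to 0.0633 CPM and 3 reads, the floor used here, 0.133 to 0.190 CPM.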
